A study of Arabidopsis thaliana with 9 samples.

Results

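The chloroplast genome of Arabidopsis thaliana was examined in mRNA sequencing libraries of wild-type seedlings and of seedlings of the mutants aar2-1 and aar2-2. Chloroplast-encoded genes were taken as every listed locus code that begins with ATCG, which gave 86 of the 22903 codes in the tables. All 3 genotypes were 14 days old, were raised in days of 16 h light and 8 h dark, and had 3 libraries each, which the design text describes as biological replicates. The labels name no transgene or treatment and do not say what kind of mutation either allele carries.

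Chloroplasts keep a small genome of bacterial origin that encodes core subunits of the photosystems, the cytochrome b6f complex, the ATP synthase, the NDH complex and the plastid ribosome, as well as the large subunit of Rubisco. Its genes are transcribed, often as long joint transcripts of several genes, by a bacterial-type polymerase with a plastid-encoded core and by a phage-type polymerase encoded in the nucleus. Short poly(A) tails on chloroplast RNA mark it for decay, unlike the tails of nuclear mRNA. The labels call the libraries mRNA-seq, and how mRNA was enriched is not given in the sources used here. Where poly(A) RNA is selected, chloroplast reads stand for a small and uneven part of chloroplast RNA, so the values below are levels in these libraries and cannot be told apart from the share of each RNA that the library step retained.

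The TAIR10.1 annotation lists 129 plastid genes, 85 coding for proteins, 37 for transfer RNAs and 7 for ribosomal RNAs, under locus tags of another form. Descriptions in that annotation paired 6 of the 86 codes with a name, and the other codes are given as they stand, with no gene name or role. The named codes are ribosomal proteins L20 (ATCG00660), S11 (ATCG00750) and L2 (ATCG01310), the plastid-encoded ClpP (ATCG00670), a CemA-like proton extrusion protein (ATCG00530) and ATCG00430. The description of ATCG00430, photosystem II reaction center protein G, stands in the note of a nuclear gene for a subunit of NADH-ubiquinone oxidoreductase and matched no plastid protein product, so that code is not assigned to a complex here. Of 78 plastid protein symbols, 7 are annotated more than once, L2 among them, and reads of such near-identical copies may be split between codes. Whether reads were counted by strand is not given in the sources used here, and sense and antisense RNA cannot be separated.

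The libraries held between 24471217 and 35266334 reads over the listed genes, with the 3 wild-type libraries the shallowest, so genotype and depth cannot be told apart. The targeted gene, AT1G66510, had a mean of 7.67 CPM in wild type (SD 0.58), 6.04 in aar2-1 (SD 1.12) and 4.58 in aar2-2 (SD 0.62), with n = 3 each. CPM give a gene's reads relative to all reads counted in its library. Against wild type the gene fell in aar2-2, by 0.64 on the log2 scale (limma adjusted p = 0.0091), and its aar2-1 difference of -0.31 did not pass the test (0.10), though without aar2-1 replicate 1 it was -0.44 and passed. The library labelled aar2-1 replicate 1, at 7.33 CPM, lay inside the wild-type range of 7.11 to 8.27 CPM. The leaf genes RBCS1A and CAB1 had 19906 ± 243 and 14325 ± 2350 CPM in wild type (SD, n = 3), whereas 5 of 6 root markers lay at or below a mean of 1.28 CPM there, the endodermis marker CASP1 and root hair markers among them.

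Chloroplast-encoded genes took up less than 1% of every library, and their share varied more between libraries of 1 mutant than between genotype means. In wild type the share was 0.680%, 0.730% and 0.649% in replicates 1 to 3, on 166376 to 202193 reads. In aar2-1 it was 0.933%, 0.873% and 0.658%, on 205888 to 273545 reads. In aar2-2 it was 0.665%, 0.870% and 0.565%, on 199188 to 299504 reads. Replicates 1 and 2 of aar2-1 and replicate 2 of aar2-2 lay above all wild-type libraries, and aar2-2 replicate 3 lay below them all, so the groups overlapped. The mean share was 0.686 ± 0.041% in wild type, 0.821 ± 0.145% in aar2-1 and 0.700 ± 0.156% in aar2-2 (SD, n = 3). The difference from wild type was 0.135 percentage points in aar2-1 and 0.014 in aar2-2. Without aar2-1 replicate 1 the first was 0.079 and without aar2-1 replicate 3 it was 0.217. Without aar2-2 replicate 2 the second was -0.071, without aar2-2 replicate 3 it was 0.081, and leaving out wild-type replicate 3 gave -0.0048. Wild-type replicate 2 and aar2-2 replicate 1, left out in turn, gave 0.036 and 0.032.

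**Figure D1:**
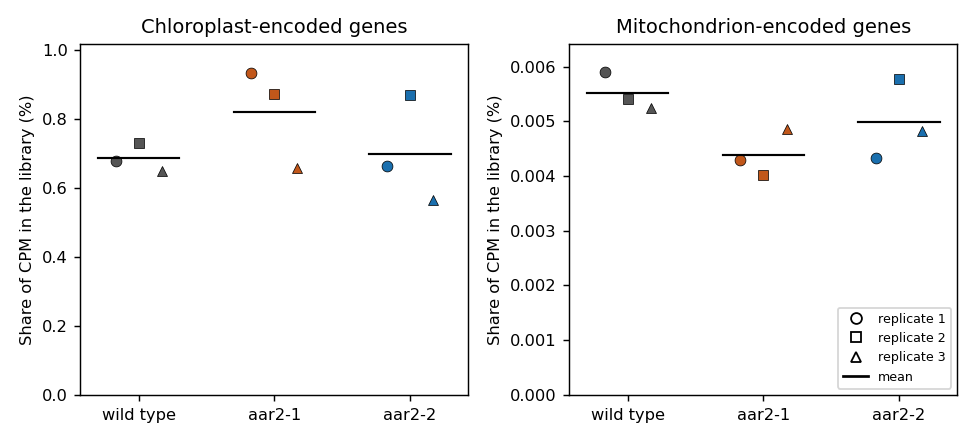
Share of each library's CPM (vertical axes, %) in the 86 chloroplast-encoded and the 50 mitochondrion-encoded genes, by genotype. Symbols are libraries and bars are means of 3. The chloroplast share overlaps between genotypes and spreads from 0.565% to 0.870% in aar2-2, and the mitochondrial share of the 3 aar2-1 libraries lies below that of wild type.

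The 50 listed mitochondrion-encoded genes, the other organelle genome of these cells, gave a share from 0.0040% to 0.0059%. Chloroplast CPM exceeded mitochondrial CPM by 115 to 135 times in the wild-type libraries, by 217, 217 and 135 times in aar2-1 and by 153, 151 and 117 times in aar2-2. Both parts of this ratio differed, since mitochondrial CPM was 59.0, 54.1 and 52.4 in wild type and 42.9, 40.3 and 48.6 in aar2-1, with no overlap. In aar2-2 it was 43.3, 57.8 and 48.3, which overlaps wild type. The summed CPM of 6 leaf markers ran from 50683 to 58788 in wild type, 53105 to 56903 in aar2-1 and 49963 to 57118 in aar2-2, and these ranges overlapped. The summed CPM of 6 root markers ran from 374 to 399 in wild type, 209 to 247 in aar2-1 and 195 to 271 in aar2-2, nearly all of it from PYK10, a root and hypocotyl beta-glucosidase. PYK10 fell in both mutants, by 0.73 and 0.67 on the log2 scale (limma adjusted p = 0.0032 and 0.0061). Of the leaf markers, CAB2 and CAB1 fell in aar2-2, by 1.03 and 0.52 (adjusted p = 0.010 and 0.045), and CA1 rose in aar2-1, by 0.37 (adjusted p = 0.036). No other leaf-marker difference passed the test. By library, RBCS1A, CA1 and GAPA were higher and CAB2 and CAB1 lower in all 6 mutant libraries than in any wild-type library. Of all genes tested, 13.2% and 13.7% were higher and lower in this way. In aar2-2 the rises of RBCS1A, CA1 and GAPA were 0.31, 0.31 and 0.215 (limma adjusted p from 0.069 to 0.13). The part of the leaf and root markers in the chloroplast values was not tested. A different number of chloroplast-rich cells and a different amount of chloroplast RNA per cell cannot be told apart in whole seedlings.

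Single chloroplast-encoded genes differed in level by about 4 orders of magnitude. In wild type the mean level ran from 0.121 to 1530 CPM with a median of 9.94 CPM. Averaged over all libraries, 16 of the 86 genes reached 100 CPM, 31 lay from 10 to 100 CPM, 35 from 1 to 10 CPM and 4 below 1 CPM. The lowest gene had 49 reads over the 9 libraries and the highest 350304. The 82 genes averaging 1 CPM or more were tested, the lowest of them at 1.08 CPM and the highest of the other 4 at 0.63 CPM. The signal was concentrated, since the 10 highest genes of a library made up 71.1% to 76.2% of its chloroplast CPM. ATCG00480 was the highest gene in all 9 libraries, at 1647, 1706 and 1237 CPM in wild type.

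Per kilobase of coding length, S11 stood highest among the 5 described codes with a known length, which leaves out ATCG00430. In wild type S11, a protein of the small ribosomal subunit, was measured at 166 ± 20 CPM per kb, ClpP, the proteolytic subunit of the stromal Clp protease, at 39.7 ± 0.97 and the CemA-like envelope protein at 26.6 ± 1.1 (SD, n = 3). L20 and the L2 code ATCG01310, of the large subunit, were level at 13.3 ± 1.5 and 13.2 ± 0.43 CPM per kb. They did not differ beyond their spread. ATCG01310 is 1 of 2 annotated copies of L2, so its value may not hold all reads of L2. The order of these genes was the same in aar2-1 and aar2-2 for S11, ClpP and the CemA-like gene, with S11 at 261 ± 74 and 199 ± 19 CPM per kb.

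Against wild type, the chloroplast-encoded genes that changed in either mutant were all higher. In aar2-1, 23 of the 82 tested genes (28.0%) rose and 0 fell at a limma adjusted p-value under 0.05, with log2 fold changes of (CPM + 1) from 0.36 to 0.88. Over all 18838 genes tested, 25.1% were called in that comparison, 11.5% higher and 13.6% lower, so members were called about as often as other genes over both directions, and 28.0% stands beside 11.5% for rises alone. At an unadjusted p-value under 0.05 the counts were 32 higher and 0 lower. Both edgeR, with 25 higher, and DESeq2, with 26 higher, on the recovered reads also called 0 lower. The median log2 fold change of the 82 genes was 0.26, against -0.0037 for all genes, and 69 of them had a value above 0. In 38 genes all 3 aar2-1 libraries lay above all 3 wild-type libraries and in 0 below them, where 19.8% and 21.8% of all genes did so. The count of 23 was 9 without wild-type replicate 1, 15 without wild-type replicate 3 and 8 without aar2-1 replicate 1, with 0 lower in each. Of all genes, 12.4%, 16.7% and 15.7% were called over both directions in those fits, against 25.1% with all libraries.

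In aar2-2, 9 of the 82 genes (10.98%) rose and 0 fell, with log2 fold changes from 0.35 to 0.73. All genes tested gave 21.5% called, 12.1% higher and 9.4% lower, so the members were called no more often than other genes in the upward direction. At an unadjusted p-value under 0.05, 28 were higher and 2 lower. On the recovered reads edgeR called 8 higher and 0 lower, and DESeq2 called 14 higher and 2 lower. The median log2 fold change was 0.18, against 0.032 for all genes, and 60 of 82 values were above 0. The aar2-2 libraries lay wholly above wild type in 28 genes and wholly below in 0, where 25.1% and 19.2% of all genes did so. The count of 9 moved when single libraries were left out, and so did the share of all genes called over both directions. The count was 3 without wild-type replicate 1 or 2 (9.14% and 13.8% of all genes called). It was 4 without wild-type replicate 3 or aar2-2 replicate 1 (14.0% and 13.4%), and 4, 2 of them lower, without aar2-2 replicate 2 (12.1%). It rose to 14 without aar2-1 replicate 3 (24.9%) and to 19 without aar2-2 replicate 3 (13.4%). Higher in both mutants were 9 genes and lower in both 0, where 6.4% and 7.17% of all genes were. The same wild-type libraries serve both comparisons, so this count is not separate evidence.

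**Figure D2:**
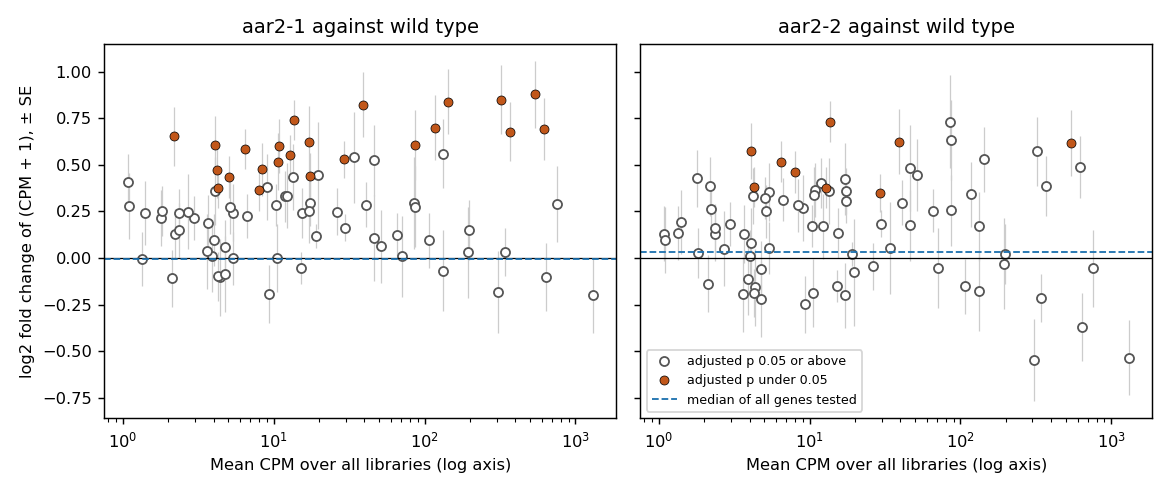
Log2 fold change of (CPM + 1) against wild type (vertical axis, ± SE) by mean CPM over all libraries (log axis) for the 82 tested chloroplast-encoded genes. Filled points, 23 in aar2-1 and 9 in aar2-2, passed a limma adjusted p-value of 0.05, and the dashed line is the median of all 18838 genes. All filled points lie above 0, and 3 high-level genes have the lowest values in aar2-2.

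The rises were spread over the range of levels. In aar2-1, 6 of the 16 genes at 100 CPM or more rose, 9 of 31 between 10 and 100 CPM, and 8 of 35 between 1 and 10 CPM. The 6 were ATCG00770, ATCG00780, ATCG00790, ATCG00800, ATCG00810 and ATCG00820, which follow one another in the listed codes. In lower classes the nearby codes ATCG00750 (S11) and ATCG00830 also rose in aar2-1, by 0.61 and 0.62 (limma adjusted p = 0.042 and 0.039). ATCG00740 and ATCG00760, at 0.56 and 0.52, did not pass the test (0.052 and 0.068). Whether these neighbouring codes share a joint transcript was not tested, so they may not be separate rises. In aar2-2 the counts were 1 of 16, 4 of 31 and 4 of 35, and the median log2 fold change of the highest class was -0.0046. Between the mutants 0 of 82 genes differed by limma (2 at an unadjusted p-value under 0.05, both lower in aar2-2), and edgeR and DESeq2 also called 0. Of all genes tested, 0.0212% were called there, 0.00531% higher and 0.0159% lower. The 3 aar2-2 libraries lay wholly above the aar2-1 libraries in 1 gene and wholly below in 1, against 13.7% and 6.12% of all genes.

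Among the ribosomal proteins, L20 rose in both mutants. L20 was measured at 4.21, 4.65 and 5.26 CPM in wild type, 8.05, 6.62 and 8.02 CPM in aar2-1 and 7.35, 7.64 and 6.49 CPM in aar2-2, on 103 to 263 reads per library. All 6 mutant libraries lay above all wild-type libraries. The log2 fold changes were 0.58 and 0.52 (SE 0.11 each), with limma adjusted p-values of 0.0053 and 0.011, and both stayed below 0.05 in all 9 fits that left out 1 library.

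S11 was measured at 60.4, 70.4 and 77.3 CPM in wild type, 129, 124 and 73.3 CPM in aar2-1 and 84.2, 90.1 and 74.1 CPM in aar2-2. Replicates 1 and 2 of aar2-1 stood apart, and aar2-1 replicate 3 lay inside the wild-type range, as did aar2-2 replicate 3. S11 rose in aar2-1 by 0.61 on the log2 scale (SE 0.19, limma adjusted p = 0.042). That p-value rose above 0.05 in 6 of 9 leave-one-out fits, reaching 0.14, and the fits concerned omitted each wild-type library in turn, aar2-1 replicate 1, aar2-1 replicate 2 or aar2-2 replicate 2. Its aar2-2 difference of 0.26 (SE 0.19) did not pass the test (adjusted p = 0.36).

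L2 is annotated in 2 copies, and ATCG01310 is the only code paired with it here. A code for the other copy was not identified, so the values of that copy are not given. ATCG01310 was measured at 11.03, 10.5 and 11.1 CPM in wild type. It had 15.6, 18.3 and 11.9 CPM in aar2-1 and 14.6, 18.2 and 10.8 CPM in aar2-2. All aar2-1 libraries lay above wild type, while aar2-2 replicate 3 lay within it. Neither difference passed the test, at 0.44 and 0.36 on the log2 scale (SE 0.18 each, limma adjusted p = 0.10 and 0.17). The aar2-1 value passed it with DESeq2 (0.50, adjusted p = 0.046) and with limma without aar2-1 replicate 3 (0.59, adjusted p = 0.040).

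ClpP rose in both mutants. It was measured at 22.8, 23.8 and 23.8 CPM in wild type, 38.2, 34.5 and 30.6 CPM in aar2-1 and 30.9, 33.7 and 26.3 CPM in aar2-2, so all mutant libraries lay above wild type. The log2 fold changes were 0.53 and 0.35 (SE 0.10 each), with limma adjusted p-values of 0.0058 and 0.034. The aar2-2 call was lost in 5 of 9 fits that left out 1 library, those omitting any wild-type library or replicate 1 or 2 of aar2-2, with log2 fold changes no lower than 0.27 and adjusted p-values up to 0.12.

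The CemA-like gene and ATCG00430 showed the smallest differences among the named codes. The CemA-like gene was measured at 17.6, 18.3 and 19.2 CPM in wild type, 19.8, 19.9 and 20.2 CPM in aar2-1 and 19.4, 18.8 and 17.8 CPM in aar2-2. Its aar2-1 libraries lay just above the wild-type range, and its aar2-2 libraries overlapped it. The log2 fold changes were 0.12 and 0.023 (SE 0.07 each), with limma adjusted p-values of 0.21 and 0.83. ATCG00430 was measured at 182, 214 and 167 CPM in wild type, 223, 223 and 180 CPM in aar2-1 and 190, 238 and 150 CPM in aar2-2, and the 3 groups overlapped. Its log2 fold changes were 0.15 and 0.021 (SE 0.16 each), with adjusted p-values of 0.51 and 0.94. The aar2-2 values of both genes changed sign under TMM scaling, to -0.0013 for the CemA-like gene and -0.0041 for ATCG00430.

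Of the codes without a name, ATCG00800 and ATCG00380 rose most on average over both mutants. ATCG00800 was measured at 337, 372 and 385 CPM in wild type, 832, 716 and 504 CPM in aar2-1 and 584, 658 and 454 CPM in aar2-2. ATCG00380 was measured at 8.99, 8.48 and 9.76 CPM in wild type, 16.4, 16.0 and 15.0 CPM in aar2-1 and 16.0, 18.3 and 13.2 CPM in aar2-2. In both genes every mutant library lay above every wild-type library. The log2 fold changes of ATCG00800 were 0.88 and 0.62 (SE 0.18 each), with limma adjusted p-values of 0.0079 and 0.035. Its aar2-2 call was lost without any 1 of the wild-type libraries and without replicate 1 or 2 of aar2-2, at log2 fold changes down to 0.50 and adjusted p-values up to 0.12. The log2 fold changes of ATCG00380 were 0.74 and 0.73 (SE 0.11 each), with adjusted p-values of 0.0020 and 0.0030, and both calls stayed in all 9 fits that left out 1 library.

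The libraries of 1 genotype differed along the chloroplast genome as a whole. In aar2-2, 78 of the 86 genes were highest in replicate 2 and 74 were lowest in replicate 3. In aar2-1, 55 genes were lowest in replicate 3, while the highest value was in replicate 1 for 38 genes and in replicate 2 for 31. In wild type the highest value was in replicate 1, 2 and 3 for 18, 30 and 38 genes. Over the 82 tested genes the median coefficient of variation between libraries was 9.73% in wild type, 15.3% in aar2-1 and 20.6% in aar2-2, beside 7.19%, 9.31% and 7.44% over all genes tested. Chloroplast-encoded genes thus varied more between libraries than the typical gene in each genotype, by the largest margin in aar2-2. The deepest library, aar2-2 replicate 3, had the lowest chloroplast share, while the next deepest, aar2-2 replicate 2, had 0.870%. Replicate 3 had the lowest share in each genotype, at 0.649% in wild type, 0.658% in aar2-1 and 0.565% in aar2-2. The parts of depth and of replicate number in this spread were not tested.

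ATCG00020 showed the spread of aar2-2 most plainly and was chosen for description after its values were seen. It was measured at 65.2, 64.7 and 61.5 CPM in wild type, 73.9, 68.8 and 94.9 CPM in aar2-1 and 84.5, 176 and 81.0 CPM in aar2-2. Both mutants lay above wild type in every library, and aar2-2 replicate 2 stood far above the other libraries. The log2 fold changes were 0.29 and 0.73 (SE 0.25 each), with limma adjusted p-values of 0.41 and 0.061, so neither passed the test. Without aar2-2 replicate 2 the second was 0.37, and without aar2-2 replicate 3 it was 0.93 with an adjusted p-value of 0.042.

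The make-up of the chloroplast signal was also set beside wild type. As a share of all chloroplast CPM, 13 of 86 genes (15.1%) were higher in all 6 mutant libraries than in any wild-type library and 7 (8.14%) were lower in all 6. By CPM over the whole library, a different scale, 23 of the 82 tested members were higher in this way and 0 lower. Of all 18838 genes tested, 13.2% were higher and 13.7% lower on that scale. The shares of chloroplast CPM have no like count over all genes. Such shares sum to the whole, so a rise of some genes lowers the share of others, and no test was made. ATCG00480, the highest gene and chosen here for its level, made up 24.2%, 23.4% and 19.1% of chloroplast CPM in wild type, 15.6%, 17.3% and 15.9% in aar2-1 and 13.6%, 15.9% and 16.2% in aar2-2, with no overlap between wild type and the mutants. Its CPM values were 1459, 1508 and 1043 in aar2-1 and 902, 1387 and 916 in aar2-2, which overlap the wild-type range, and its log2 fold changes of -0.20 and -0.53 (SE 0.20 each) had limma adjusted p-values of 0.49 and 0.083. The aar2-2 value passed the test with DESeq2 on all libraries (-0.56, adjusted p = 0.024) and with limma without aar2-2 replicate 2 (-0.74, adjusted p = 0.036). ATCG00470, the third highest gene, made up 11.03%, 10.6% and 9.25% in wild type, 7.69%, 8.40% and 8.14% in aar2-1 and 7.35%, 8.31% and 8.05% in aar2-2. ATCG00800, described above, went the other way, from 4.96%, 5.09% and 5.93% in wild type to between 7.56% and 8.92% in the mutant libraries. On this scale replicate 3 of aar2-1 and replicate 2 of aar2-2 lay close to the other libraries of their genotype for ATCG00480 and ATCG00470, but not for ATCG00020, which took 1.44% and 2.03% there.

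**Figure D3:**
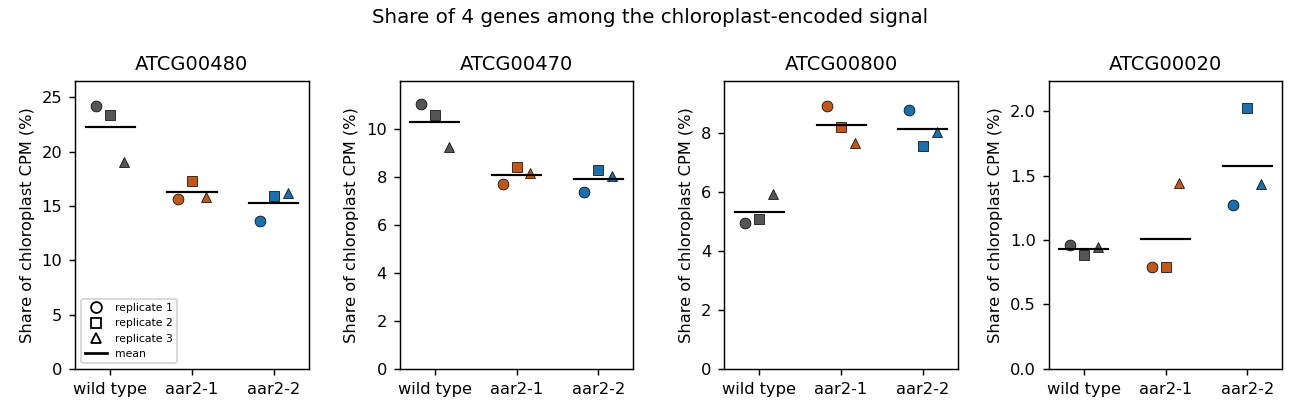
Share of the chloroplast CPM of a library (vertical axes, %, from 0) taken by ATCG00480, ATCG00470, ATCG00800 and ATCG00020, by genotype. Symbols are libraries and bars are means of 3. The share of ATCG00480 and ATCG00470 lies lower and that of ATCG00800 higher in all 6 mutant libraries than in wild type, while ATCG00020 reaches 2.03% in aar2-2 replicate 2.

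Nuclear genes that serve plastid transcription were set beside the chloroplast genes. The list held 20 genes, the phage-type polymerases SCA3 and AT5G15700, the 6 sigma factors that guide the bacterial-type polymerase to promoters, and 12 proteins that associate with that polymerase. In aar2-2, 12 of the 20 rose and 0 fell by limma (14 higher and 0 lower at an unadjusted p-value under 0.05), with a median log2 fold change of 0.39, beside 12.1% of all genes higher. In aar2-1, 5 of 20 rose and 0 fell (7 higher and 1 lower at an unadjusted p-value under 0.05), with a median of 0.16. Over both directions 5 of 20 is a share near the 25.1% of all genes called there. For rises alone it stands beside 11.5% of all genes higher, with 13.6% lower. On the recovered reads edgeR and DESeq2 called 0 of them lower in aar2-2. The aar2-2 count was 7 without wild-type replicate 1 or 2 and without aar2-2 replicate 1 or 2. Of all genes, 9.14%, 13.8%, 13.4% and 12.1% were called in those fits, in that order. The aar2-1 count was 1 without wild-type replicate 1 or 2, 2 without aar2-1 replicate 1 or 2, 3 without aar2-2 replicate 2 and 8 without aar2-1 replicate 3, and leaving out wild-type replicate 3 gave 4 higher and 1 lower. Over those fits 12.4% to 24.6% of all genes were called. The aar2-1 count was also 3 with only the 2 groups compared and 3 without the trend in the variance. Between the mutants 0 of the 20 differed by limma, 4 at an unadjusted p-value under 0.05.

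PDE312, a component of the plastid transcription complex also called PTAC10, rose most among the genes called in both mutants, with wild-type, aar2-1 and aar2-2 means of 72.2 ± 2.9, 97.2 ± 17.1 and 108 ± 8.0 CPM (SD, n = 3). Its log2 fold changes were 0.41 and 0.57 (SE 0.11 each), with limma adjusted p-values of 0.023 and 0.0075, and the aar2-1 call was lost without wild-type replicate 1 or 2 (0.40 and 0.39). SIG2, a sigma factor for plastid promoters, rose from 107 ± 0.37 CPM to 135 ± 10.5 and 148 ± 6.4 CPM (SD, n = 3), with adjusted p-values of 0.0075 and 0.0026 that stayed below 0.05 in every alternative fit. The fructokinase-like protein FLN1, the iron superoxide dismutase FSD3 and PTAC6 had log2 fold changes from 0.26 to 0.29 in aar2-1 and from 0.39 to 0.53 in aar2-2. Their aar2-1 calls were each lost without wild-type replicate 1 or 2 or without aar2-1 replicate 1 or 2, and for FLN1 and FSD3 also without aar2-2 replicate 2. FSD3 further lost it without wild-type replicate 3 or aar2-2 replicate 3. The sigma factor gene SIGE was the gene of the list with values below 0 in both mutants, at -0.43 and -0.27, with adjusted p-values of 0.085 and 0.26.

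Of 11 nuclear genes for chloroplast RNA processing and decay, 4 rose in aar2-2 and 1 fell in aar2-1, beside 12.1% of all genes higher in aar2-2 and 13.6% lower in aar2-1. In aar2-2 the 4 were emb2746, which encodes the chloroplast RNase J, the endonuclease gene RNEE/G, EMB2730 (also RNR1), an exoribonuclease gene, and MRL1, a factor for the mRNA of the Rubisco large subunit, at 0.45, 0.28, 0.34 and 0.44 on the log2 scale (limma adjusted p from 0.021 to 0.032). In aar2-2, 0 genes fell, also at an unadjusted p-value and with edgeR and DESeq2. The count of 4 was 0 without wild-type replicate 1 or aar2-2 replicate 1 and 1 without wild-type replicate 2 or aar2-2 replicate 2. In those fits 9.14% to 13.8% of all genes were called. HCF152, an RNA-binding protein for transcripts of the cytochrome b6f genes, fell in aar2-1 by 0.37 on the log2 scale with an adjusted p-value of 0.026. It was the sole call there, and 0 genes were called without wild-type replicate 1 or 2 or without aar2-1 replicate 1, 2 without aar2-2 replicate 1, and 4, all of them higher, without aar2-1 replicate 3. In those fits 12.4% to 24.9% of all genes were called. TMM scaling gave 4 calls in aar2-1, 3 higher and 1 lower, and edgeR and DESeq2 each gave 5, 4 higher and 1 lower. RIF10, the polynucleotide phosphorylase that acts on tailed chloroplast RNA, did not pass the test in aar2-1 (0.13, adjusted p = 0.37) or aar2-2 (0.17, adjusted p = 0.28).

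**Figure D4:**
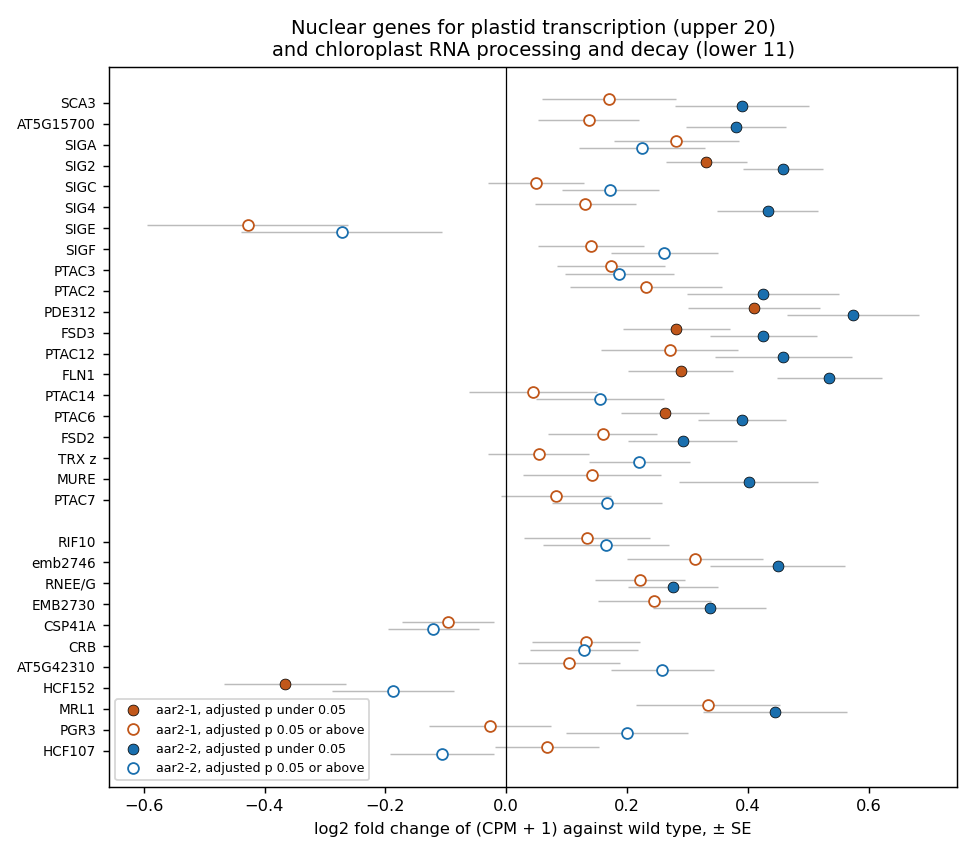
Log2 fold change of (CPM + 1) against wild type (horizontal axis, ± SE) of 20 nuclear genes for plastid transcription and 11 for chloroplast RNA processing and decay, named by their RefSeq symbol. Filled points passed a limma adjusted p-value of 0.05. In the upper list 12 aar2-2 points and 5 aar2-1 points are filled, all above 0, and in the lower list HCF152 in aar2-1 is the single filled point below 0.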

How the data were processed

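Seedling RNA was extracted with TRI Reagent and made into libraries with a NEBNext Ultra II RNA kit, per the labels' protocols. The authors deposited 1 table per library in CPM, a unit read from the values, which sum to between 999965 and 999978. The submitters' processing notes name featureCounts 1.64, DESeq2 and the build TAIR10, with no role. Low values were whole multiples of 1 step, so reads were recovered: 99.9956% to 100% of values came out whole within 0.05 reads.

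Groups and replicate numbers came from the titles. Genes averaging 1 CPM or more were fitted on log2(CPM + 1), a scale that understates changes of low genes, with limma 3.58.1 (lmFit, eBayes with trend) in R 4.3.3, all 9 libraries in 1 fit, with Benjamini-Hochberg adjustment over 18838 genes and calls at 0.05. Alternatives were edgeR 4.0.16 and DESeq2 1.42.0 on the recovered reads, other scalings, filters and pseudocounts, a replicate block, and leaving out each library. The procedure was run on simulated counts, drawn separately for each gene with a common spread. Those runs do not cover libraries in which chloroplast-encoded genes moved together. The members and lists were chosen with earlier results of these data known.

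The naming rule called for psbA, rbcL and the highest gene of each functional group. ATCG codes were not paired with those names in the sources used here, so the 6 codes with a description and the 2 unnamed codes with the largest rise are given in full. Up to 5 nuclear genes per list called in both mutants were named, ordered by mean absolute log2 fold change; the other nuclear genes and the codes ATCG00470, ATCG00480 and ATCG00020 were chosen after their values were seen. Symbols came from the TAIR10.1 RefSeq table, which matched 22767 of 22903 codes. Its coordinates are not used, since the build differs in name. Counting intervals are not given. At low read numbers, such as the 103 to 263 reads of ATCG00660, counting error is a large part of the spread between libraries.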

Additional observations from a re-analysis of the deposited data

How the results depend on the processing

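The count of chloroplast-encoded genes changed in aar2-2 (9) was 16 with DESeq2, 14 with only the 2 groups compared and 17, 14 higher and 3 lower, with the replicate block. The share of all genes called in aar2-2 was 24.3%, 24.6% and 21.1% under these 3 settings, in that order, against 21.5% in the main fit. The stricter threshold of 0.01 left 7 genes for aar2-1, 1 for aar2-2 and 1 for both. Of all genes tested, 9.02% passed that threshold in aar2-1 and 6.25% in aar2-2. Leaving out 1 library gave 8 to 24 for aar2-1, 3 to 19 for aar2-2 and 2 to 13 for the genes called in both, which share the wild-type libraries (9 as reported). No other alternative moved these counts by over 1.5 times, and the count between the mutants was 0 throughout. Same-numbered libraries had correlations of deviations from -0.19 to 0.52, the highest between replicates 3 of aar2-1 and aar2-2. In 9 of 18 checks a library was closest to its own number. The labels give only the number, and whether same-numbered libraries share a batch cannot be told from these values. With the block, L2 in aar2-1 (adjusted p = 0.044) and ATCG00480 in aar2-2 (adjusted p = 0.019) passed the limma test. The aar2-2 log2 fold change of ATCG00430 turned to -0.0041 with TMM scaling, -0.00014 with quantile normalization, -0.0042 with edgeR and -0.00034 with DESeq2, and ran from -0.14 to 0.19 when 1 library was left out. That of the CemA-like ATCG00530 turned to -0.0013 with TMM scaling, -0.015 with edgeR and -0.012 with DESeq2, and ran from -0.0058 to 0.057 when 1 library was left out. Of 608 values of named genes under alternatives, 547 kept direction and side of the threshold, 42 lost the call, 8 gained one and 11 reversed. The cause was not tested. The planned share without psbA and ribosomal RNA was not run, since their codes were not paired with names here.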
